A study of Rattus norvegicus with 36 samples.

Results

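The comparison described here is the first response of the soleus muscle to treadmill walking after spinal cord injury (SCI). The 6 arrays of rats trained for 3 sessions (SCI8d + TM) were compared with the 6 arrays of untrained rats of the same day (SCI8d), which are 12 of the 36 arrays of the study, and they were chosen by their titles alone. All rats were adult female Sprague Dawley animals, 16 weeks old, and every rat of both groups had a moderate contusion of the cord at T8 from a 10 g weight dropped 25 mm. SCI8d rats stayed untrained until day 8, whereas SCI8d + TM rats stepped on a treadmill for 20 min in each session, 2 times on day 7 and 1 time on day 8, and the left soleus was taken 8 h after the last session. Uninjured rats (CTR) and the day 14 groups, SCI14d and SCI14d + TM (5 days of training with 2 sessions per day), are used below only to place the day 8 values. Each array held RNA from 1 rat, and the trainer supported part of the body weight by hand where needed.

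The soleus is a slow postural muscle of the lower hind limb, and it loses mass quickly when it no longer bears weight. In muscle that is unloaded, ubiquitin ligases such as MuRF1 (Trim63) and atrogin-1 (Fbxo32) mark proteins for breakdown by the proteasome, a barrel-shaped core (20S) with a regulatory cap (19S). When load returns, immediate early genes, growth factor signals and the division of satellite cells and other mononuclear cells are known parts of the response.

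Signals were MAS5 intensities, on a linear scale, and differences are log2 fold changes of SCI8d + TM minus SCI8d with their SE from limma, n = 6 arrays per group. A log2 fold change of 1 is a 2-fold higher signal. Every array had the same trimmed mean, and the array medians ran from 189.7 to 212.2 in SCI8d and from 202.9 to 234.3 in SCI8d + TM. Of 12 muscle marker genes of the soleus (Myh7, Tnni1, Mb, Acta1, Ckm and others), 1 was higher on average in trained rats. Their median log2 fold change was -0.09. Their summed signal ran from 480116 to 853453 in SCI8d and from 499736 to 701849 in SCI8d + TM. In whole muscle, fewer cells of a type and less RNA per cell cannot be told apart. Arrays of both groups stood apart from the rest of their group. SCI8d replicate 1 was low in cell-cycle and matrix genes and high in adipocyte genes, SCI8d replicate 2 was low in tendon genes and high in erythrocyte genes, and SCI8d + TM replicate 2 was highest in cell-cycle and macrophage genes. The main counts are therefore also given without SCI8d replicate 1 and SCI8d + TM replicate 2.

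No probe set passed the test. With limma and Benjamini-Hochberg adjustment over 31042 probe sets, 0 were called (0%), the smallest adjusted p was 0.695, and 1343 had an unadjusted p under 0.05 (4.33%), of which 831 were higher (2.68%) and 512 lower (1.65%) in SCI8d + TM. The number expected by chance is 1552. Among 14217 genes, each represented by its brightest probe set, 585 were at an unadjusted p under 0.05 (4.11%), 365 higher (2.57%) and 220 lower (1.55%), and 54.2% of genes were higher on average. The named genes and gene families below are therefore given as estimates, with their ranks by p among the 10375 genes whose mean signal lay above the 40th percentile. Over these genes the middle 90% of log2 fold changes lay between -0.30 and 0.43, and the median SE was 0.19, against 0.61 for the dimmer genes. Array scaling moved the balance of directions. The share of higher probe sets among those at an unadjusted p under 0.05 was 61.9% as deposited, 49.4% after quantile normalization, 33.6% after median centring and 86.2% when scaled to Gapdh.

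Of the 46 gene lists compared, that of mitosis had the highest median. Of 47 measured genes of mitosis (cyclins, kinesins, condensins, kinetochore and spindle checkpoint genes), 47 were higher on average in SCI8d + TM, with a median log2 fold change of 0.85 and a range of 0.16 to 2.01, whereas the median over all genes was 0.02. At an unadjusted p under 0.05 there were 13 higher and 0 lower, and 0 were called. Of 27 genes of DNA replication, 27 were higher on average, with a median of 0.39, and 6 were at an unadjusted p under 0.05, all higher.

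The promoters of these genes are shown because the members were all higher on average and because mitotic and replication genes are known to carry different promoter elements, the CCAAT box with the cell-cycle homology element (TTTGAA) and the E2F element. Windows of 300 bases, from 250 before to 50 after the RefSeq start (build GRCr8), were searched on both strands for the CCAAT box, for the homology element TTTGAA and for the 4 E2F forms of TTTNNCGC in which each N is G or C. Windows were found for 41 of 47 mitosis genes and 25 of 27 replication genes. TTTGAA was in 27 of 41 mitosis windows (65.9%), in 4 of 25 replication windows (16%) and in 18.2% of all 27457 windows. An E2F form was in 14 of 25 replication windows (56%), in 2 of 41 mitosis windows (4.88%) and in 2.2% of all windows. CCAAT was in 73.2% of mitosis windows and 60% of replication windows, against 37.7% of all windows, and in 75% of 12 windows of the 20S proteasome. The shares describe the letters of these windows and not binding of a factor. Capitals mark the motifs, from either strand, and 2 overlapping E2F forms read as 1 run in Mcm5 and Mcm6.
Ccnb2 (chr8:79981609-79981908, minus strand), the mitotic cyclin B2: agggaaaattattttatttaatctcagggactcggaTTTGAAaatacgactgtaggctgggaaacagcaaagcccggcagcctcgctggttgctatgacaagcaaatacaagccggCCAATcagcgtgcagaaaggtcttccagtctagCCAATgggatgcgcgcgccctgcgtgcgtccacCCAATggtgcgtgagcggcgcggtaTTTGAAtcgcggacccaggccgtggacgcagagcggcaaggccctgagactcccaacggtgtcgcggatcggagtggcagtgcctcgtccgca
Smc2 (chr5:71602155-71602454, plus strand), a condensin subunit: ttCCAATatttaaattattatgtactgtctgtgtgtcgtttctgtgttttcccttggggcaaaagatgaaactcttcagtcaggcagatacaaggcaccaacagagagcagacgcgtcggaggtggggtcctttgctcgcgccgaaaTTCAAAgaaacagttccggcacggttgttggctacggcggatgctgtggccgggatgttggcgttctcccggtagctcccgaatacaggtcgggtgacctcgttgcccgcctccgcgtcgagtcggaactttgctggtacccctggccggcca
Mcm5 (chr19:13488563-13488862, plus strand), a subunit of the replicative helicase: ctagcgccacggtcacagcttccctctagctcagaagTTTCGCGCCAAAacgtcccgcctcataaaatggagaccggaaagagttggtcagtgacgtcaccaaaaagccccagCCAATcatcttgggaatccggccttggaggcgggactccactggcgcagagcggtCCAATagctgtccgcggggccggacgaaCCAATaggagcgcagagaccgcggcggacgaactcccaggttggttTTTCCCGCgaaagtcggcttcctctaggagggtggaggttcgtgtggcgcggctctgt
Mcm6 (chr13:42404303-42404602, minus strand), another subunit of that helicase: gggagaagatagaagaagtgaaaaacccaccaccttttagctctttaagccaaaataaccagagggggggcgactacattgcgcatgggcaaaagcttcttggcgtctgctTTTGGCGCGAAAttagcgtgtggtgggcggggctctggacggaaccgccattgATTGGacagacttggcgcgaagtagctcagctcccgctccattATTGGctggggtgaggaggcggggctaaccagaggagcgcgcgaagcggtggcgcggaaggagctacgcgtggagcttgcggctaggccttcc
The Ccnb2 window held 3 CCAAT boxes and 2 TTTGAA elements. The Mcm5 window held 3 CCAAT boxes and 3 E2F forms.

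Slbp, which binds the stem-loop of histone mRNAs and is present when DNA is being copied, had rank 2 by p. Its signal was 246 to 471 (median 338) in SCI8d + TM and 116 to 229 (median 178) in SCI8d. The groups did not overlap, which held for 20 of all 14217 genes in this direction (0.141%). Of the 924 possible arrangements of the 12 arrays, 1 gives such a separation, so that share is near the one given by chance. The log2 fold change was 1.01 (SE 0.24, adjusted p = 0.695 in limma), and it was 1.01 without both arrays that stood apart. The other probe sets of Slbp were dim, and 1 of them had a log2 fold change of -0.06.

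Smc2, the condensin subunit whose promoter is shown above, had signals of 164 to 682 (median 307) in SCI8d + TM and 78.9 to 223 (median 143) in SCI8d. In 4 of 6 trained rats it was above every untrained rat, and the log2 fold change was 1.12 (SE 0.32), or 0.79 without both arrays that stood apart. Bub1, a kinase of the spindle checkpoint, was at 406 to 860.1 (median 465) against 206 to 454 (median 299.8). Its log2 fold change was 0.78 (SE 0.24) and 3 of 6 trained rats lay above all untrained ones. Uhrf1, which recruits the maintenance DNA methyltransferase to newly copied DNA, was at 174 to 815 (median 320.2) against 100.4 to 283 (median 150.1), a log2 fold change of 1.11 (SE 0.34).

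Ccnb2 and Ncaph, a second condensin subunit, showed how far the single arrays reached. Ccnb2 ran from 314 to 1313 (median 537) in SCI8d + TM and from 112 to 637 (median 357) in SCI8d, with a log2 fold change of 1.0 (SE 0.41) that was 0.48 without both arrays. Ncaph ran from 344 to 867 (median 384) against 132 to 367 (median 295), with a log2 fold change of 0.79 (SE 0.30) and 0.41 without both. Among the replication genes, Mcm5 had a log2 fold change of 0.69 (SE 0.29), Mcm6 of 0.87 (SE 0.39), Gins1, a part of the helicase complex, of 0.52 (SE 0.23) and Rrm1, a subunit of ribonucleotide reductase, of 0.39 (SE 0.16). Prim2, the large primase subunit, was among the 10 highest fold changes, with 1.61 (SE 0.52), and its lowest untrained signal was 8.28.

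Repair genes were split. Of 22 genes of the Fanconi and BRCA1 group, 12 were higher and 10 lower on average (median log2 fold change 0.07). At an unadjusted p under 0.05 there were 6, all higher, against 2.57% of all genes higher. Fancc had the lowest value, -1.13 (SE 0.6), or -1.43 without both arrays that stood apart. Rad54l, a motor protein of recombination, was dim but without overlap, at 78.5 to 176 (median 102) in SCI8d + TM and 10.9 to 69.7 (median 22.2) in SCI8d, with a log2 fold change of 1.98 (SE 0.57). Fancd2 had a log2 fold change of 0.81 (SE 0.31), Chek1, the kinase that answers stalled replication, of 0.67 (SE 0.27), and Exo1, an exonuclease, of 2.01 (SE 0.77) at a low signal. Among 24 genes of the E2F and Rb system, 20 were higher on average (median 0.26), or 15 (median 0.09) without both arrays that stood apart. E2f7, an E2F repressor, had a log2 fold change of 1.28 (SE 0.46) and Ccne1, the cyclin of S-phase entry, of 1.53 (SE 0.64).

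**Figure D1:**
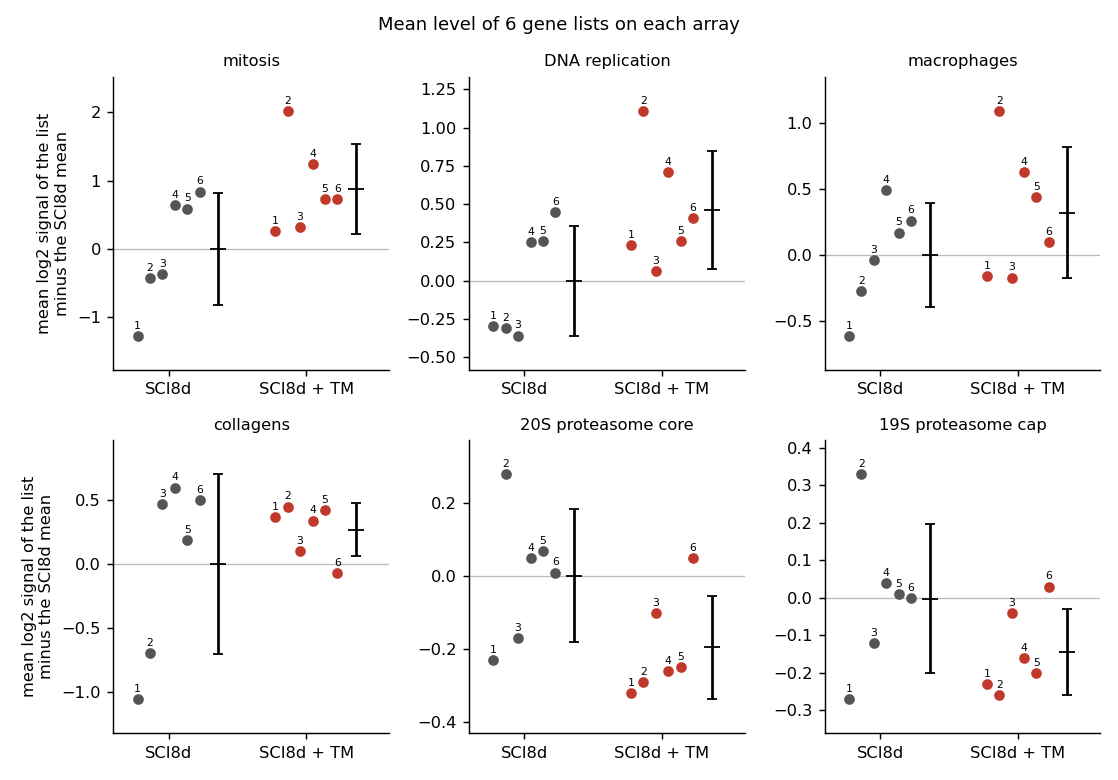
Mean log2 signal of 6 gene lists on each array, minus the SCI8d mean (y axis), for SCI8d and SCI8d + TM (x axis). Points are arrays numbered by replicate, and the bar is the group mean with its SD. In mitosis, SCI8d replicate 1 lies lowest at -1.27 and SCI8d + TM replicate 2 highest at 2.02, and in the proteasome lists the difference runs the other way.

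How much of the cell-cycle difference rested on single rats is seen in the mean levels per array. For mitosis the 6 trained rats lay between 0.26 and 2.02 and the 6 untrained rats between -1.27 and 0.84 on the log2 scale, relative to the SCI8d mean, so the groups overlapped. SCI8d replicate 1 was the lowest untrained array and SCI8d + TM replicate 2 the highest trained array of this list, so that leaving both out had to give a smaller difference. SCI8d replicate 2, at -0.43, was kept. The SD was 0.66 in SCI8d + TM and 0.82 in SCI8d. Without SCI8d replicate 1 and SCI8d + TM replicate 2, 43 of 47 mitosis genes were higher on average, the median log2 fold change was 0.38, and 2 were at an unadjusted p under 0.05. For replication, 26 of 27 were then higher on average, with a median of 0.22 and 0 at an unadjusted p under 0.05. With each of the 12 arrays left out in turn, the mitosis median ran from 0.59 to 0.98 and the number at an unadjusted p under 0.05 from 2 to 24.

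Untrained injured muscle was also set against uninjured muscle. The mitosis median was 1.54 in SCI8d minus CTR, where limma called 22 of 47 higher (3.44% of all genes were called higher), and the replication median was 0.38 with 1 of 27 genes called, a share near that of all genes. Both comparisons use the SCI8d arrays, so the values are only set side by side. Markers of macrophages were higher with the cell cycle. Of 28 markers 26 were higher on average in SCI8d + TM (median 0.36), 0 were at an unadjusted p under 0.05, and their summed signal ran from 66173 to 134975 in SCI8d + TM and from 44808 to 103124 in SCI8d. Clec4a, a receptor of myeloid cells, had the smallest p of this list, with a log2 fold change of 0.62 (SE 0.32). The macrophage median was 0.07 without both arrays that stood apart, and the part of these cells in the cell-cycle values was not tested.

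Proteasome subunits were lower on average, although no longer at an unadjusted p under 0.05 when scaled to Gapdh. Of 13 subunits of the 20S core 0 were higher on average in SCI8d + TM, the median log2 fold change was -0.20, and 6 were at an unadjusted p under 0.05, all lower. Of 21 subunits of the 19S cap 1 was higher on average, the median was -0.16, and 5 were at an unadjusted p under 0.05, all lower. Among all genes 45.8% were lower on average and 1.55% were lower at an unadjusted p under 0.05. Psmb3, a core subunit with rank 19 by p, had signals of 5483 to 7574 (median 6226) in SCI8d + TM and 5786 to 12015 (median 8208) in SCI8d. Its log2 fold change was -0.38 (SE 0.12), and 3 of 6 trained rats lay below every untrained one. Psmb5, which carries the chymotrypsin-like site, was at 10112 to 14467 (median 11978) against 12086 to 16881 (median 14589.5), a log2 fold change of -0.26 (SE 0.09).

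The differences were small in both parts of the proteasome. Psmb1 (-0.25, SE 0.10) and Psmb7 (-0.27, SE 0.12), another catalytic subunit, of the core had log2 fold changes close to those of the cap ATPases Psmc5 (-0.28, SE 0.11), Psmc1 (-0.27, SE 0.11) and Psmc3 (-0.21, SE 0.09). Psmd4, a ubiquitin receptor of the cap, was at -0.24 (SE 0.11). Without both arrays that stood apart the medians were -0.25 for the core and -0.20 for the cap, and 7 and 5 subunits were at an unadjusted p under 0.05. SCI8d replicate 1 had the lowest untrained mean level of both lists (-0.23 and -0.27). SCI8d replicate 2, which had the highest (0.28 and 0.33), was kept. With each array left out in turn, the core median ran from -0.27 to -0.14, with 3 to 8 subunits at an unadjusted p under 0.05. The cap median ran from -0.20 to -0.10, with 1 to 7. Scaling to Gapdh, with which the median of all genes was 0.14, left medians of -0.09 and -0.04, which are -0.23 and -0.18 relative to all genes. With that scaling 3 of 13 core and 9 of 21 cap subunits were higher on average, and 0 of either were at an unadjusted p under 0.05. In SCI8d minus CTR the medians were 0.19 for the core and 0.24 for the cap, and the summed core signal was 116909.8 to 133260 in CTR, 120055 to 173975 in SCI8d and 114137 to 148806 in SCI8d + TM.

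**Figure D2:**
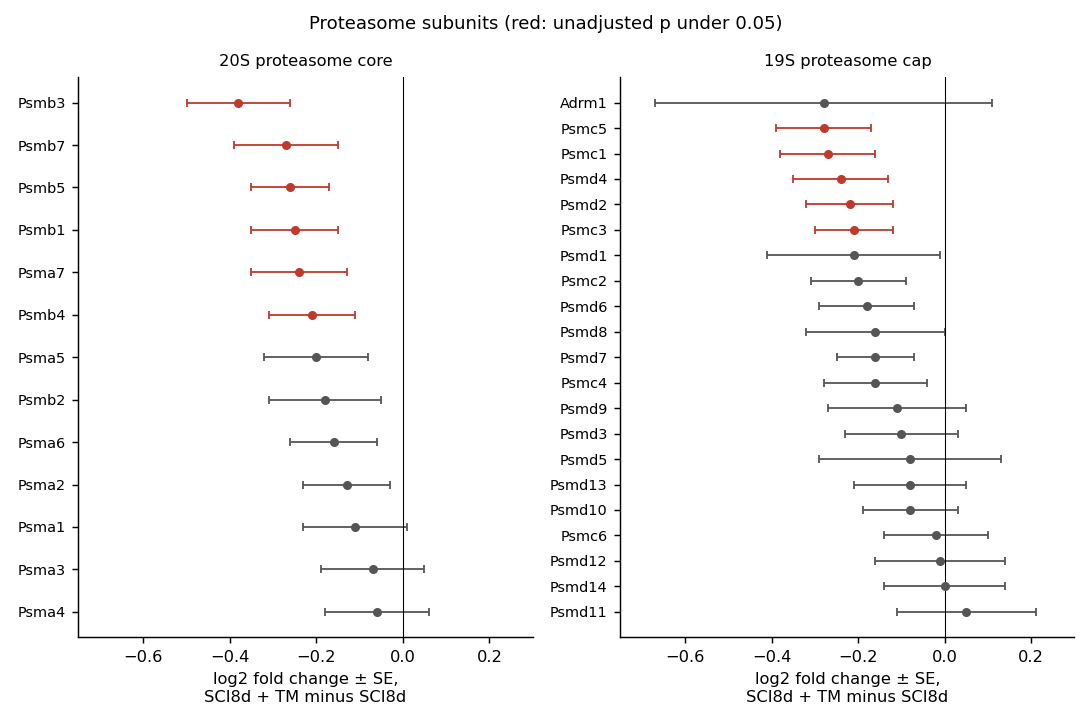
Log2 fold change with its SE (x axis) of each measured proteasome subunit (y axis), SCI8d + TM minus SCI8d, n = 6 arrays per group. The subunits of the 20S core all lie below 0, Psmb3 lowest at -0.38, and 6 core and 5 cap subunits (red) had an unadjusted p under 0.05.

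Among the ubiquitin ligases of atrophy, Trim63 and Fbxo32 had the lowest values. Trim63, which encodes MuRF1, had signals of 2687 to 6569.8 (median 3921) in SCI8d + TM and 4387 to 8972 (median 5837) in SCI8d. Its log2 fold change was -0.57 (SE 0.18), it had rank 14 by p, and 4 of 6 trained rats lay below every untrained one. Fbxo32, which encodes atrogin-1, was at 98.9 to 409 (median 187) against 294 to 538 (median 309), again with 4 of 6 below and with a log2 fold change of -0.92 (SE 0.35). Without both arrays that stood apart the values were -0.48 and -0.99. Over the list of 22 genes of this group, 7 were higher on average and the median was -0.08, and without both arrays 11 were higher with a median of -0.01. Scaled to Gapdh, 14 were higher with a median of 0.04, where the median of all genes was 0.14. In SCI8d minus CTR the median of the list was -0.01, and Trim63 was at 0.33 and Fbxo32 at -0.44. Fbxo30, another ligase of atrophy, was at -0.33 (SE 0.27), Foxo4 at -0.25 (SE 0.26) and Mdm2, the ligase of p53, at -0.23 (SE 0.16). These genes were chosen after their values were seen, and Foxo4 was at 0.09 without both arrays. Klhl40 had the highest value of the list, 0.18 (SE 0.29), and Foxo1 was at 0.03 (SE 0.23) and Foxo3 at -0.08 (SE 0.15). Asb2, a ligase component of muscle, had a log2 fold change of -0.39 (SE 0.25) that was -0.06 without both arrays, and Ube3a was at 0.17 (SE 0.09).

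The signals that set muscle size through the TGF-beta family were described by the study for single genes, so their exact permutation tests (two-sided, 924 arrangements, smallest possible p = 0.00216) describe genes that were chosen on these arrays. Of the 20 genes it names, 6 had an exact p under 0.05. Follistatin (Fst), which binds and blocks myostatin and activin, was lower on both of its probe sets. On the first it was at 212 to 547 (median 291) in SCI8d + TM and 474 to 810.4 (median 593) in SCI8d, with a log2 fold change of -0.92 (SE 0.22, exact p = 0.00866 with n = 6 per group). On the second it was at 254 to 758 (median 453) against 547 to 1103 (median 819.9), with a log2 fold change of -0.81 (SE 0.24, exact p = 0.0108 with n = 6 per group). On each, 5 of 6 trained rats lay below every untrained rat.

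Smad3, the transducer of myostatin, activin and TGF-beta, was at 2595 to 3699.9 (median 2906) in SCI8d + TM and 3262 to 5162 (median 3723) in SCI8d. The log2 fold change was -0.39 (SE 0.17, exact p = 0.013 with n = 6 per group), with 5 of 6 trained rats below. A dimmer probe set of Smad3 was at -0.26 (SE 0.94, exact p = 0.439 with n = 6 per group). Bmp3, a ligand that opposes other BMPs, was dim, at 13 to 78.8 (median 35.5) against 64.7 to 109 (median 74.1), a log2 fold change of -1.23 (SE 0.42, exact p = 0.0108 with n = 6 per group). Bmpr2, the type II BMP receptor, was at 684 to 1536 (median 854) against 350.4 to 890.4 (median 563), a log2 fold change of 0.68 (SE 0.25, exact p = 0.0368 with n = 6 per group), while its second, dim probe set was at -1.13. The BMP target Id1 had a log2 fold change of 0.52 (SE 0.27), and Acvr2b, a receptor of myostatin, of -0.50 (SE 0.31). As lists, 28 BMP genes had a median of 0.06 and 24 genes of the myostatin, activin and TGF-beta branch a median of 0.10.

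**Figure D3:**
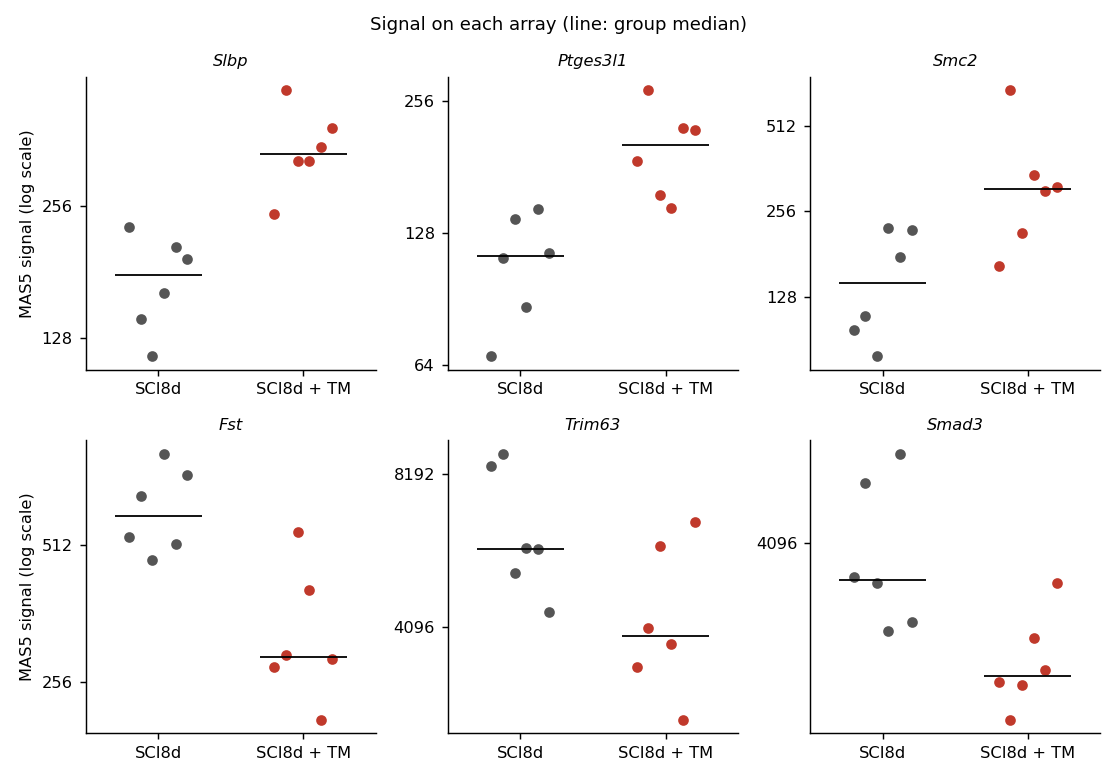
MAS5 signal (y axis, log scale) of 6 genes on each array of SCI8d and SCI8d + TM (x axis), with the group median as a line. Slbp and Ptges3l1 do not overlap between the groups, Smc2 overlaps, and Fst (shown for the probe set with medians of 291 and 593), Trim63 and Smad3 lie lower in SCI8d + TM.

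Immediate early genes were mostly higher 8 h after the last session, with wide spread. Of 31 genes of AP-1 and related early genes 26 were higher on average, with a median log2 fold change of 0.26 and 2 at an unadjusted p under 0.05, both higher. Without both arrays that stood apart 24 were higher, with a median of 0.13, and the median ran from 0.19 to 0.45 with single arrays left out. After median centring 0 higher and 1 lower were at an unadjusted p under 0.05. Jun was at 6050 to 13499.5 (median 8097) in SCI8d + TM and 4166 to 9013 (median 5058) in SCI8d, a log2 fold change of 0.61 (SE 0.30, exact p = 0.026 with n = 6 per group). Its other probe sets were at 0.37 (SE 0.28, exact p = 0.154) and 0.55 (SE 0.35, exact p = 0.11), with n = 6 per group. Ier5, an early gene of growth and heat stress, had a log2 fold change of 0.78 (SE 0.36), and Fos, the partner of Jun, one of 1.40 (SE 0.89) with a 95% interval from -0.41 to 3.21. Fos ran from 1208 to 13342 in SCI8d + TM and from 587 to 7063 in SCI8d, so untrained rats also reached high values. Hbegf, a ligand of the EGF receptor, and Ptgs2, the inducible cyclooxygenase, were among the 10 highest fold changes with 1.30 (SE 0.51) and 1.32 (SE 1.13). Fosl2 had the lowest value of the list, -1.34 (SE 0.69) at a low signal. In SCI8d minus CTR the median of the list was -0.68, and the mean level per array in CTR ran from -0.04 to 1.77, so uninjured rats overlapped both groups.

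Matrix and inflammatory genes were higher on average without any passing. Of 20 collagens 20 were higher on average (median 0.23) and of 37 matrix proteins and proteases 34 were (median 0.25), with 0 at an unadjusted p under 0.05 in both. These medians were 0.02 and 0.02 without both arrays that stood apart, and that of 17 fibroblast markers went from 0.27 to 0.01. Postn and Lum, secreted by fibroblasts, showed this in 1 array. Postn was at 2604 in the lowest SCI8d rat against an SCI8d median of 24096, and its log2 fold change was 0.71 (SE 0.51) with all arrays and 0.18 without both. Among 33 chemokine and interleukin 6 family genes 21 were higher on average (median 0.27). That median was 0.03 without SCI8d + TM replicate 5 and 0.16 without both arrays that stood apart. Ccl4, a chemokine of macrophages, had a log2 fold change of 0.86 (SE 0.42).

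Mitochondrial genes had medians slightly below 0, and those of glycolysis a lower one. The median log2 fold change was -0.06 over 72 genes of the respiratory chain and ATP synthase, -0.11 over 20 genes of mitochondrial fatty acid oxidation and -0.05 over 17 genes of the citrate cycle, with 0 genes at an unadjusted p under 0.05 in all 3 lists. On average 57 of 72, 19 of 20 and 12 of 17 were lower, against 45.8% of all genes. Without both arrays that stood apart the medians were 0.06, 0.03 and 0.1. The same lists had medians of -0.41, -1.09 and -0.58 in SCI8d minus CTR. Fabp3, which carries fatty acids in the cytosol, had a log2 fold change of -0.11 with a 95% interval from -0.86 to 0.64, and Lpl, lipoprotein lipase, one of 0.01 with an interval from -0.52 to 0.54. Of 26 genes of glycolysis and glycogen 6 were higher on average (median -0.19, or -0.02 without both arrays that stood apart). Hk1, a hexokinase, stood at the upper end with 0.36 (SE 0.17), and Pgam2, the muscle phosphoglycerate mutase, and Gpi were at -0.33 (SE 0.19) and -0.25 (SE 0.14).

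Fiber type genes had medians slightly below 0 as well. The median was -0.05 over 18 slow genes, of which 13 were lower on average, and -0.14 over 22 fast genes, of which 18 were lower. Without both arrays that stood apart the medians were -0.02 and 0.03. Myh4, the heavy chain of the fastest fibers, ranged from 176 to 1017 in SCI8d + TM and from 222 to 13252 in SCI8d, so that its log2 fold change of -1.09 (SE 1.12) was -0.06 without both arrays. Myh1 was at 0.42 (SE 0.34), and Myh8, the perinatal chain, was at 170.1 to 1539 (median 530.1) against 130.1 to 336 (median 251), a log2 fold change of 1.14 (SE 0.72). Myh14, a nonmuscle heavy chain, was lower, at 1384 to 2795 (median 1559) against 1618 to 4692 (median 2630), a log2 fold change of -0.73 (SE 0.24). Of the myogenic factors, Myf6 had a log2 fold change of 0.25 (SE 0.16, exact p = 0.0216 with n = 6 per group) and Myog one of 0.17 (SE 0.29, exact p = 0.613 with n = 6 per group). The study also measured Fst, Smad3 and Myf6 by quantitative RT-PCR. It reported lower Fst and Smad3 with training, and for Myf6 no significant increase of the mRNA.

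**Figure D4:**
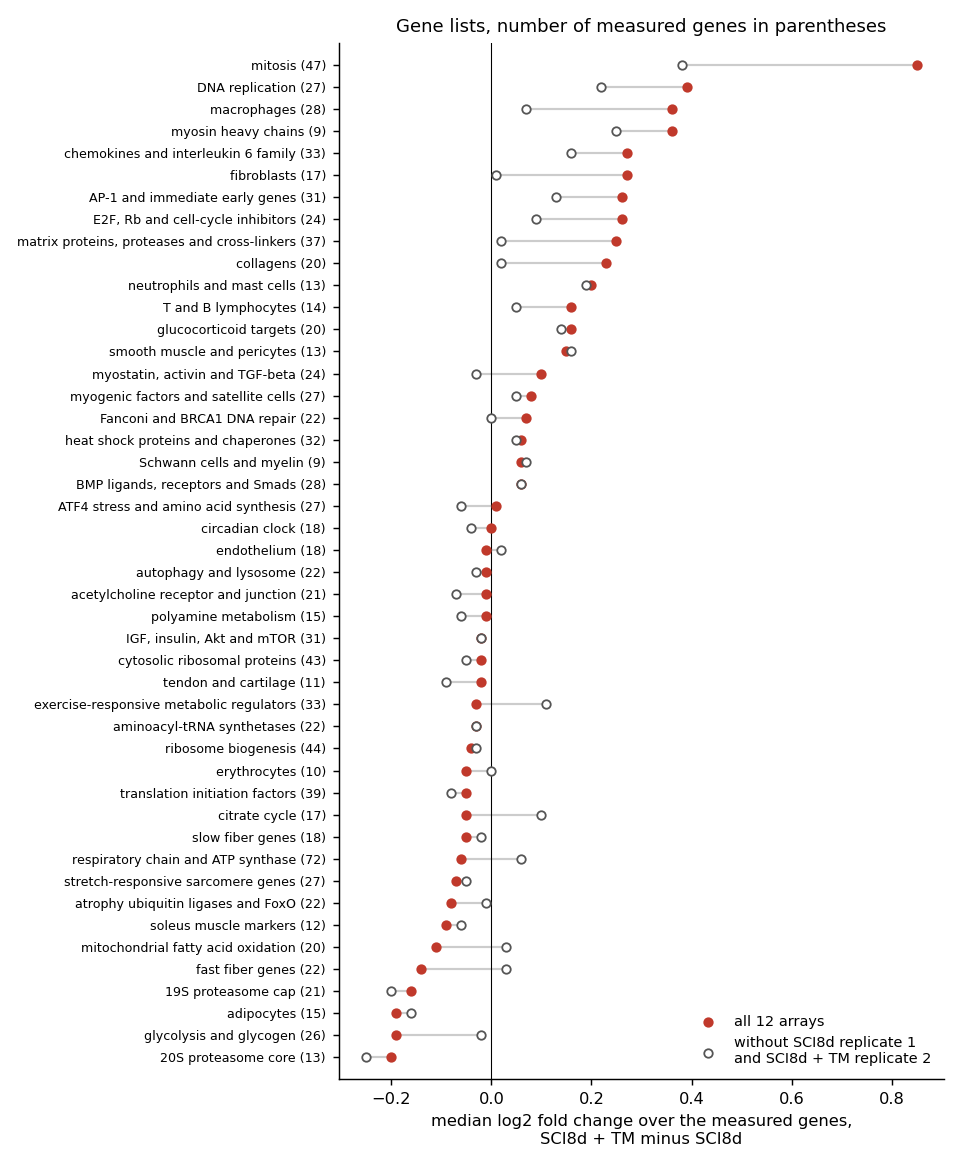
Median log2 fold change (x axis) of the 46 gene lists (y axis, number of measured genes in parentheses), SCI8d + TM minus SCI8d, with all 12 arrays (filled) and without SCI8d replicate 1 and SCI8d + TM replicate 2 (open). Mitosis stands highest in both, at 0.85 and 0.38, and the 20S proteasome lowest, at -0.20 and -0.25.

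Outside these families, Ptges3l1 had the smallest p of the brighter genes. It was at 146 to 271 (median 203) in SCI8d + TM and 66.9 to 145 (median 114) in SCI8d, without overlap, and its log2 fold change was 0.87 (SE 0.20) at an adjusted p of 0.695 in limma. Samd4b (0.55, SE 0.15), Casd1 (0.50, SE 0.15) and Caap1 (0.45, SE 0.14) were close behind it. Kcnq1, a potassium channel, and Grm4, a glutamate receptor, had log2 fold changes of 1.44 (SE 0.41) and 1.84 (SE 0.52). For Grm4 the signal was 125 to 645 (median 438) in SCI8d + TM, 19.7 to 324 (median 149) in SCI8d and had a median of 647 in CTR.

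On the lower side, 5 of 6 trained rats lay below every untrained rat for Csnk2b and for Sod1. Csnk2b, the regulatory subunit of casein kinase 2, was at 5755 to 8578 (median 7162) against 7998 to 9582 (median 8890.4), a log2 fold change of -0.30 (SE 0.09). Sod1, the cytosolic superoxide dismutase, was at 11964 to 14516 (median 12755) against 14229 to 17694 (median 16460), a log2 fold change of -0.33 (SE 0.10). Hrc, a calcium-binding protein of the sarcoplasmic reticulum, was at -0.43 (SE 0.14), Trpc4ap at -0.37 (SE 0.13) and Urgcp at -0.49 (SE 0.16). Prkacb, a catalytic subunit of protein kinase A, and Etv5, a factor of the ETS family, were higher without overlap between the groups, with log2 fold changes of 0.33 (SE 0.10) and 0.49 (SE 0.21). Other, dimmer probe sets of Samd4b (-0.28), Caap1 (-0.43), Ier5 (-0.89), Fos (-0.06), Ube3a (-0.11) and Hdac5 (0.17) had the opposite sign. Hdac5, a class II histone deacetylase, was at -0.46 (SE 0.19), and the clock repressor Nr1d1 at -0.68 (SE 0.33).

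The study's own day 8 pathway table, chosen on these arrays, lists 32 probe sets that were found here. Of these 11 were higher and 21 lower, 21 were at an unadjusted p under 0.05, and 0 were called. The ubiquitination pathway made up most of the lower ones, with 13 of 14 lower and a median log2 fold change of -0.26. The 5 probe sets of the BRCA1 pathway were all higher, with a median of 0.67.

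The training effect on day 8 was set against that on day 14, which uses other rats. In the interaction of limma, the day 14 effect minus the day 8 effect, 0 probe sets were called (0%), 1659 had an unadjusted p under 0.05 (5.34%), and the smallest adjusted p was 0.208. Over the 10375 brighter genes the log2 fold changes of both days had a correlation of 0, given as a description across genes, which are not independent. The mitosis genes had a median of 0.85 on day 8 and -0.24 on day 14, where 6 of 47 were higher on average. For the early genes the medians were 0.26 and -0.66, for chemokines 0.27 and -0.60, and for fatty acid oxidation -0.11 and 0.38. Without SCI8d + TM replicate 5 the day 8 median of the chemokines was 0.03.

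Some genes had the same sign on both days. Fst had log2 fold changes of -0.81 on day 8 and -0.68 (SE 0.24) on day 14, and -0.92 and -0.87 on its other probe set. Trim63 was at -0.57 and -0.80, Fbxo32 at -0.92 and -0.61, Smad3 at -0.39 and -0.53, and Urgcp at -0.49 and -0.44. Slbp was at 1.01 and 0.07, with a difference between the days of -0.94 (SE 0.33, adjusted p = 0.918 in limma). Fos was at 1.40 and -1.61, and Psmb3 at -0.38 and 0.16. Fabp3 (-0.11 and 1.21), Lpl (0.01 and 0.98) and Asb2 (-0.39 and 0.91) had their larger values on day 14. The difference between the days passed the test for none of the genes named here, with an adjusted p from 0.85 to 0.996 in limma.

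**Figure D5:**
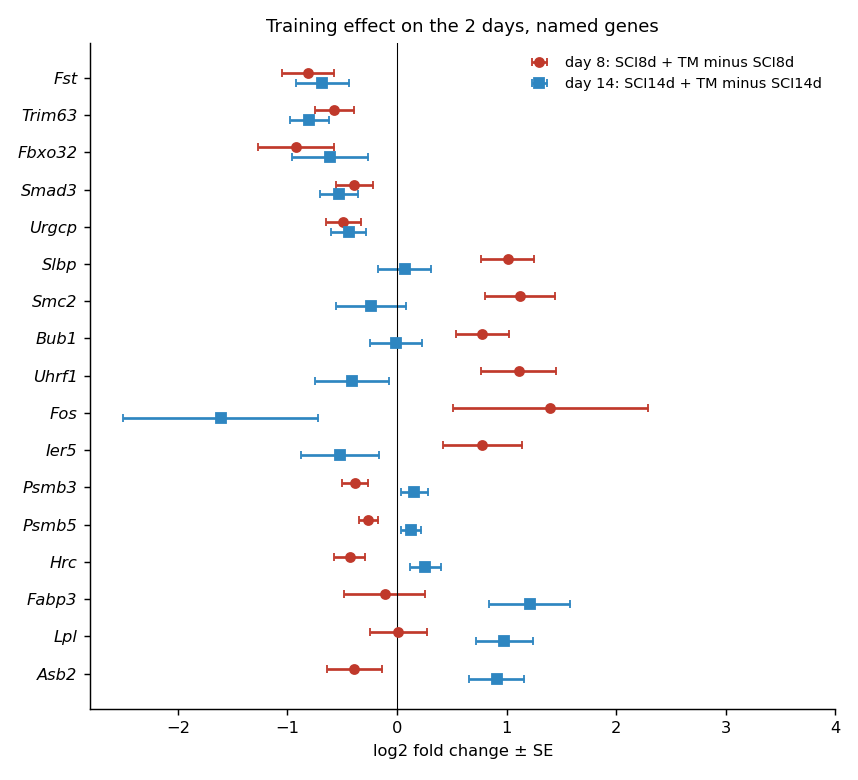
Log2 fold change with its SE (x axis) of 17 named genes (y axis) with training on day 8 (circles) and on day 14 (squares), n = 6 arrays per group. Fst, Trim63, Fbxo32, Smad3 and Urgcp lie below 0 on both days, and Slbp, Smc2, Bub1 and Uhrf1 lie further above 0 on day 8 than on day 14.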

How the data were processed

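RNA from the soleus of 36 rats (6 groups of 6) was hybridised to Affymetrix rat genome arrays, 1 array per rat. The authors made the deposited values, which are linear signal intensities, with MAS5 and scaled all arrays to 1 trimmed mean. Of 31099 probe sets, 57 controls were left out. The gene annotation of the array gave 1 symbol to 20826 of the remaining 31042 probe sets, several to 436 and none to 9780. A gene was represented by its probe set of highest mean signal. Log2 signals, with no offset added, were fitted with limma 3.58.1 (R 4.3.3) as 6 group means over all 36 arrays, with an intensity trend, 30 residual degrees of freedom and Benjamini-Hochberg adjustment over all probe sets. Probe sets below an adjusted p of 0.05 are described as called, and p-values measure the spread between rats. The fit was tested on simulated data before use. Single genes named by the study were also tested by exact permutation of the 12 arrays.

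Named genes were those the study names or lists in its day 8 table, the 10 highest and 10 lowest log2 fold changes and the 10 smallest p per direction among genes above the 40th percentile of mean signal, and, in each of 46 lists, 4 genes by p and the largest value in each direction. Outside this rule, Tnfrsf19, Fbxo30, Foxo1, Foxo3, Foxo4 and Mdm2 were chosen after their values were seen. Probe sets that match near-identical genes are uncertain. The comparison, the lists and the motifs were chosen with earlier results of these data known. The array number limits the precision, and nothing in the labels gives a batch. Alternatives were other scalings, an offset, a filter on dim probe sets, other variance models, the methods' t-test, other probe sets and each array left out. The omission of both SCI8d replicate 1 and SCI8d + TM replicate 2 was added after the data were seen. Promoter windows came from RefSeq (GRCr8).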

Additional observations from a re-analysis of the deposited data

Results flagged for a closer look

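In 238 groups of 6 arrays (named genes, list means and array medians), 14 held 1 array whose gap to its neighbour exceeded Dixon's limit for its share of the whole range of the group (the share is given in parentheses), and chance gives about 1 in 20. In SCI8d replicate 1 these were a low Postn (0.6253), a low mean level of heat shock proteins (0.649), a low mean level of polyamine metabolism (0.705) and a high mean level of atrophy ligases and FoxO (0.706). In SCI8d replicate 2 they were a low E2f7 (0.862), a low Kcnq1 (0.654), a high mean level of ribosome biogenesis (0.758), a high mean level of erythrocyte genes (0.785) and a low mean level of tendon and cartilage genes (0.71). In SCI8d + TM replicate 2 they were a high Rrm1 (0.649), a high Rad54l (0.656) and a high mean level of autophagy and lysosome genes (0.629). In SCI8d + TM replicate 1 they were high mean levels of fatty acid oxidation (0.709) and of tendon and cartilage genes (0.693). With each array left out in turn, the log2 fold change of E2f7 ran from 0.68 to 1.45 and that of Kcnq1 from 0.91 to 1.68.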

How the results depend on the processing

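No probe set was called under any alternative with all 12 arrays, and 1091 to 1636 probe sets had an unadjusted p under 0.05 with each array left out, against 1343. Leaving out single arrays gave 0 to 1 called probe sets, 56.8 to 66.7% higher and 0 to 1 interaction calls. Without SCI8d replicate 1, and without both that array and SCI8d + TM replicate 2, 1 probe set was called, the dim Tnfrsf19 (log2 fold change 2.61 and 2.71, adjusted p = 0.0156 and 0.0223 in limma, against 0.695 with all arrays). Array weights gave 2 interaction calls, and without SCI8d replicate 3 there was 1. The share of higher probe sets was 49.4% after quantile normalization, 33.6% after median centring and 86.2% when scaled to Gapdh. Of the study's 20 genes 3 had an exact p under 0.05 after median centring and 4 to 6 without single arrays, against 6. The cause was not tested. Replicate numbers were not taken to pair the rats, since nothing in the labels ties them. Same-numbered pairs correlated from -0.23 to 0.48, with 4 of 6 above 0.1, and differently numbered pairs from -0.27 to 0.46. Of 12 arrays 5 correlated best with their own number, so a partial pairing cannot be told apart from its absence. With a replicate block 0 were called and 1400 had an unadjusted p under 0.05.

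Signs of named genes were opposite for single other probe sets of Slbp (-0.06), Bmpr2 (-1.13, and -0.23 for the mean of its probe sets), Ube3a (-0.11), Ier5 (-0.89), Fos (-0.06), Samd4b (-0.28), Caap1 (-0.43) and Hdac5 (0.17). Fabp3 was at 0.01 when scaled to Gapdh and 0.04 without both arrays, and Lpl at -0.07 after median centring. With single arrays left out, Fabp3 ran from -0.39 to 0.08, Lpl from -0.21 to 0.16 and Myog from -0.04 to 0.32. Dim genes had the larger errors, with a median SE of 0.61 against 0.19.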

Other observations

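Genes with very large differences between rats of 1 group were found at both ends of the ranking by size. Clec3b, with a log2 fold change of 2.28 (SE 1.51), was at 60.5 to 5539 in SCI8d + TM and 17.5 to 3655 in SCI8d. Fam111a (1.52, SE 1.19) was at 162 to 7535 and 97.5 to 6703, and RT1-Bb (1.62, SE 1.08), a class II histocompatibility gene with near-identical copies that the probes may share, at 51.1 to 4685 and 7.51 to 3648. Its other, dimmer probe set had the opposite sign (-3.83, SE 1.73). Aqp4, the water channel of fast fibers, had a log2 fold change of -1.45 (SE 1.14) and was at 17.1 to 141 in SCI8d + TM and 1.78 to 1801 in SCI8d. In each of these genes both groups overlapped widely.

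Genes of protein synthesis had medians near 0. The median log2 fold change was -0.05 over 39 translation initiation factors, of which 3 were at an unadjusted p under 0.05, all lower, although that median was 0.07 when scaled to Gapdh. It was -0.02 over 43 cytosolic ribosomal proteins and -0.04 over 44 genes of ribosome biogenesis. Over 32 heat shock proteins and chaperones it was 0.06, and over 27 stretch-responsive sarcomere genes -0.07.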
